A study of Homo sapiens with 30 samples.

Results

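The 4 libraries described here profiled the histone mark H3K27me3 in K562, an established cell line from human chronic myeloid leukaemia. They were made with antibody CST9733 at 1/100 and differ in DNA extraction (SDS release or a purification column) and in PCR amplification (11 or 13 cycles). They were chosen by these labels alone, as 4 of the 30 libraries of the series, and each is the only library of its condition. None received the deacetylase inhibitor trichostatin A (TSA) that the series also tested, and each experiment began with 500000 growing cells. Another library with the same antibody, SDS extraction and 15 cycles served as a reference. The assay was CUT&Tag, in which an antibody bound to chromatin guides a transposase, so that DNA near the mark is cut and given sequencing adapters. Peaks had been called with SEACR in each library separately. Before that, reads of the 11- and 13-cycle libraries were brought to a common depth, and duplicates were then removed. The 15-cycle list is not described as downsampled. The comparisons ask whether extraction or cycle number moves the width, placement and reproducibility of H3K27me3 domains, each with 2 lists against 2.

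H3K27me3 is the trimethyl mark that Polycomb repressive complex 2 places on lysine 27 of histone H3. It marks genes held silent, among them developmental regulators of other lineages, and it typically lies over broad stretches of chromatin and not over sharp single sites. A peak caller applied to sparse reads breaks such a stretch into many short peaks. For this reason peaks of one list separated by at most 3 kb were joined here into domains.

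One library stood apart when the mark was checked against H3K27ac, the acetyl mark of active regulatory elements, which cannot occupy the same lysine as H3K27me3. Active regions were taken as the 1502 regions found in all 5 untreated H3K27ac lists at 15 cycles. The list from column extraction at 11 cycles had a peak in 37.5% of them (95% Wilson interval 35.1 to 40.0). In the other lists the share was 11.2% (SDS, 11 cycles), 9.12% (SDS, 13 cycles), 7.52% (column, 13 cycles) and 16.4% (15 cycles). Peaks covered 1.57% to 2.14% of the span analysed in the downsampled lists and 5.06% at 15 cycles. By bases, column at 11 cycles covered 7.34% of the active regions. The other downsampled lists covered 2.21% to 3.33% and the 15-cycle list 5.59%. Restricted to the 1256 active regions outside the 15-cycle H3K27me3 list, the column list at 11 cycles overlapped 31.7% and the other downsampled lists 0.637% to 3.74%. Active regions held in at least 3 of the 5 lists met 2036 of its peaks (2.76%), with a median width of 557 bp, against 0.690% to 0.936% of peaks in the other downsampled lists. The ratios below are therefore also given within 13 cycles or within SDS, which leaves this library out. Counts over all 4 lists include it unless stated.

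The peaks of all 4 downsampled lists rested on few fragments. The deposited signal is in whole numbers, as a pileup of fragments gives, and the median peak reached a highest pileup of 3 in SDS at 11 cycles, column at 11 cycles and column at 13 cycles. It reached 4 in SDS at 13 cycles and 5 in the 15-cycle list. Peaks with a highest pileup of 3 or less made up 68.8% of the SDS list at 11 cycles, 59.4% of column at 11, 45.7% of SDS at 13 and 56.4% of column at 13, against 11.7% at 15 cycles. The mean pileup over peak bases was 1.96 for SDS at 11 cycles, 2.14 for column at 13, 2.21 for column at 11 and 2.27 for SDS at 13, and 3.21 in the 15-cycle list. Signal summed over peaks put the 4 lists in the same order. Signal in peaks thus differed among these lists. Their reads had been brought to a common depth before duplicates were removed, so the reads left for peak calling may differ. The sources used here do not give that number, and its part in the signal was not tested. Only chromosomes 1 to 22 and X were used, which left out 0.449% to 0.718% of peaks.

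Single peaks were short and lay close together. Median peak width was 595 bp for SDS at 11 cycles, 611 bp for column at 11, 649 bp for SDS at 13 and 638 bp for column at 13, and 958 bp in the 15-cycle list. The median gap to the next peak was 3026.5 bp, 2402 bp, 2024 bp and 2315 bp in the same order, so that 49.8% to 57.9% of gaps were closed by joining within 3 kb. Joining gave 32769 domains for SDS at 11 cycles, 33823 for column at 11, 32682 for SDS at 13 and 31114 for column at 13. These domain numbers lay within a narrower range than the peak numbers they came from, 65283, 73663, 77659 and 69236.

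The domains formed many narrow ones and a smaller number of broad ones that held much of the length. Domains under 1 kb were 58.7% of domains in SDS at 11 cycles but 13.7% of the summed span, and in SDS at 13 cycles they were 52.5% of domains and 9.47% of span. Domains of 10 kb or wider numbered 1474 for SDS at 11 cycles, 2111 for column at 11, 2440 for SDS at 13 and 1990 for column at 13. They held 30.7%, 39.9%, 43.5% and 38.7% of the span in the same order. In the 15-cycle list 5744 domains of that width held 61.8%. Domains of 50 kb or wider numbered 16, 40, 62 and 40 in the downsampled lists and 405 at 15 cycles. Gaps between joined peaks took up a large part of every domain set, since peaks filled only 57.9% to 59.2% of the span in the 4 lists and 68.9% at 15 cycles.

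**Figure D1:**
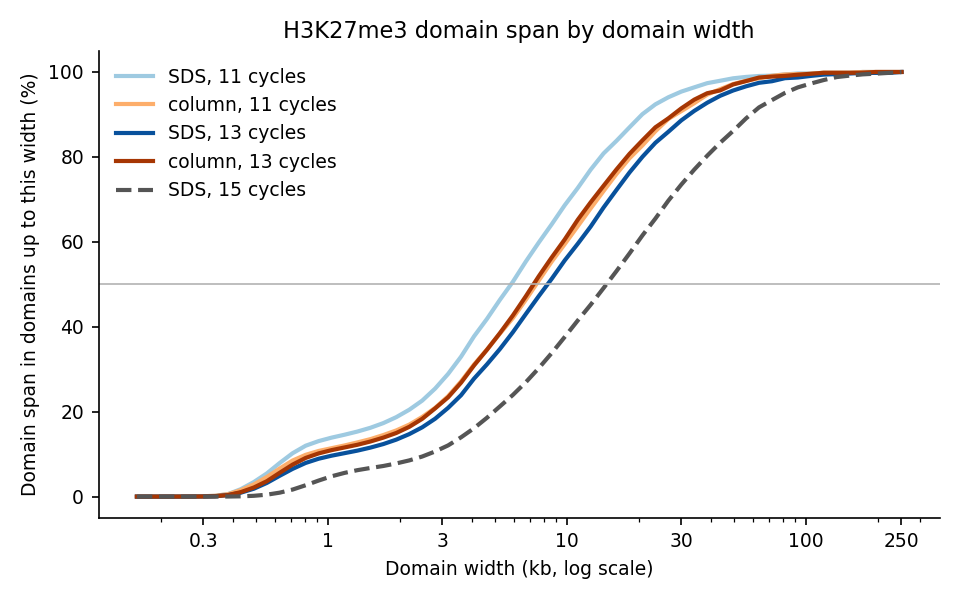
Cumulative share of summed H3K27me3 domain span (y axis, percent) in domains up to a given width (x axis, kb, log scale) for the 4 downsampled lists and the 15-cycle SDS list (dashed). The grey line marks 50%, which the lists cross at 5828 bp (SDS, 11 cycles), 7252 bp (column, 13 cycles), 7448 bp (column, 11 cycles), 8297 bp (SDS, 13 cycles) and 14612 bp (15 cycles).

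With all peaks, extraction did not separate the lists in any of the 6 measures compared. Domain span was 80.0 Mb for SDS at 11 cycles and 96.5 Mb for column at 11, but 107 Mb for SDS at 13 and 92.7 Mb for column at 13. The column list was the larger at 11 cycles and the smaller at 13, so the 2 column values lay between the 2 SDS values. The log2 ratio of column to SDS was 0.27 at 11 cycles and -0.21 at 13, with a mean of 0.029 ± 0.34 (SD, n = 2 ratios; exact two-sided permutation p = 1, adjusted 1). The N50, the domain width above which 50% of the span lies, had ratios of 0.35 and -0.19 with a mean of 0.080 ± 0.39 (SD, n = 2; exact permutation p = 1). Peak number had ratios of 0.17 and -0.17, domain number 0.046 and -0.071, and median domain width 0.043 and -0.092. With 2 lists against 2 the smallest p is 0.333, so no comparison of this design can reach 0.05. P-values were adjusted over 12 comparisons, and each adjusted p was 1.

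Without the column library at 11 cycles, the extraction comparison rests on the pair at 13 cycles alone, where the column list was lower in peak number, domain number, domain span, median width and N50. When peaks at active regions were removed from every list instead, the ratio of domain number at 11 cycles went from 0.046 to -0.0070 and that of peak number from 0.17 to 0.15. Domain number was then 32459 and 32399 in the SDS lists and 32301 and 30920 in the column lists, for 11 and 13 cycles, so that both column lists lay below both SDS lists (exact permutation p = 0.333, the smallest possible). Ratios of domain span remained at 0.26 and -0.21. Signal summed over the called peaks grows with their bases, so it is not independent of domain span. The lists with the least and the most of it, SDS at 11 and SDS at 13 cycles, also had the least and the most domain span. All 4 lists had the same order in both. The part of signal in this order was not tested.

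Cycle number separated the lists by median domain width. Domains of a single peak made up 57.0% to 62.0% of each list, so this median describes mostly narrow single peaks and not the broad domains. Median domain width was 733 bp for SDS and 755 bp for column in the 11-cycle lists, and 893 bp for SDS and 838 bp for column in the 13-cycle lists. Both 13-cycle values lay above both 11-cycle values. The log2 ratio of 13 to 11 cycles was 0.28 within SDS and 0.15 within column, with a mean of 0.22 ± 0.095 (SD, n = 2 ratios; exact permutation p = 0.333, the smallest possible, adjusted 1). The size of the ratio depended on the joining distance, with a mean of 0.82 when peaks within 10 kb were joined and 0.094 for single peaks. Domain number also did not overlap between cycle numbers, but the ratio was -0.0038 within SDS and -0.12 within column, and its mean of -0.062 changed sign under a common signal threshold, to 0.19. Without peaks at active regions the cycle numbers overlapped in domain number (exact permutation p = 0.667), with ratios of -0.0027 within SDS and -0.063 within column. With all peaks, peak number, domain span and N50 had ratios of opposite sign in the 2 extractions. For domain span they were 0.43 within SDS and -0.059 within column, and for N50 0.51 and -0.038. The common signal threshold, 754, was the lowest total signal in SDS at 13 cycles, so that list lost no peak. Peak number went to 48713 in SDS at 11 cycles, 58984 in column at 11 and 63384 in column at 13. The choice of threshold thus removed more peaks from each 11-cycle list than from either 13-cycle list, though each kept most of its peaks. With it, the ratios of peak number, domain span and N50 were above 0 in both extractions. The cycle numbers then did not overlap (exact permutation p = 0.333 for each, the smallest possible). The ratios within SDS and column were then 0.67 and 0.10 for peak number, 0.79 and 0.090 for domain span, and 0.63 and 0.012 for N50. The mean ratio went from 0.081 to 0.39 for peak number and from 0.18 to 0.44 for domain span.

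**Figure D2:**
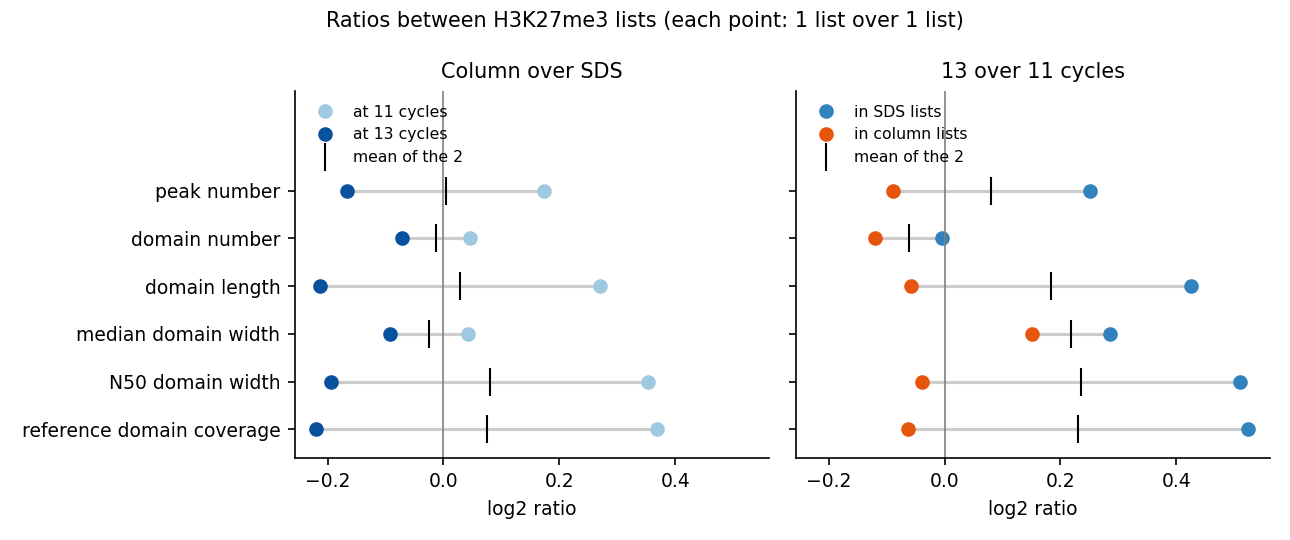
Log2 ratios of column over SDS (left) and of 13 over 11 cycles (right) for 6 measures of the H3K27me3 lists, with each ratio between 2 single lists as a point and their mean as a vertical tick. Column over SDS lies on opposite sides of 0 at 11 and 13 cycles in all 6 measures, whereas 13 over 11 cycles is above 0 in both extractions for median domain width, 0.28 and 0.15.

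The longer median at 13 cycles was seen chromosome by chromosome. Median domain width in both 13-cycle lists exceeded both 11-cycle lists on 23 of 23 chromosomes (100%), and no chromosome separated the extractions in this way (0%). On chromosome 1 it was 768 bp and 821 bp at 11 cycles, for SDS and column, and 1130 bp and 1053.5 bp at 13. On chromosome 22, the most densely covered, the values were 933.5 bp and 1041 bp against 1329 bp and 1445 bp. On chromosome X, the least covered, they were 619 bp and 641 bp against 670 bp and 680 bp. Chromosomes of one library are not replicates, since they share its reads and its calling threshold. The lowest total signal of any peak was 627 and 641 in the 11-cycle lists and 754 and 712 in the 13-cycle lists, so the weakest peaks admitted were stronger at 13 cycles. With every list limited to peaks of at least 754, the count of chromosomes was 12 of 23, and within SDS alone it was 20 of 23, against 23 of 23 with all peaks. Under this limit the ratios of the overall median were 0.16 within SDS and 0.044 within column. With each list limited to its 65283 strongest peaks the count was 23 of 23. That number is the whole SDS list at 11 cycles, which lost no peak and kept its lowest total signal of 627. This setting therefore does not make the thresholds equal.

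Peaks were also more scattered at 11 cycles, a set of measures chosen after the values had been seen and given with no test. Domains of a single peak made up 62.0% of the SDS list and 60.8% of the column list at 11 cycles, and 57.0% and 58.4% at 13. Of 2967 windows of 1 Mb, 771 and 736 held no peak at 11 cycles and 909 and 876 at 13. Fewer windows were thus empty at 11 cycles although the SDS list there had the fewest peaks of all. Empty windows numbered 905 and 840 against 909 and 915 under the common signal threshold, which brought SDS at 11 cycles close to the 13-cycle lists. Domains overlapping the 15-cycle list were 70.9% and 69.6% at 11 cycles and 73.4% and 73.5% at 13. That order turned under the common threshold, to 77.9% and 76.9% at 11 cycles and 73.4% and 75.9% at 13.

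The wide domains of the 15-cycle list offered a fixed set of regions in which to compare the libraries. Of its 5744 domains of 10 kb or wider, peaks of the SDS list at 11 cycles covered 21.2% of the bases, column at 11 cycles 27.3%, SDS at 13 cycles 30.4% and column at 13 cycles 26.1%. The 4 lists had the same order here as in signal in peaks, with the column lists at 11 and 13 cycles close together. Signal summed over peaks is not independent of the bases that peaks cover. The log2 ratio of column to SDS was 0.37 at 11 cycles and -0.22 at 13, and of 13 to 11 cycles 0.52 within SDS and -0.063 within column. The median wide domain held 4 peaks of SDS at 11 cycles, 5 of column at 11, 6 of SDS at 13 and 5 of column at 13. Nearly all wide domains were touched: 284 had no peak in SDS at 11 cycles, 190 in column at 11, 148 in SDS at 13 and 228 in column at 13. In all, 5159 (89.8%) had a peak in each of the 4 lists and 11 in none. Of the 32472 reference domains under 10 kb, between 32.4% and 37.2% had a peak in a given list.

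Agreement between lists was limited in number and high in length. Overlapping domains of the 4 lists merged into 66967 union regions over 183 Mb. Only 10438 of them (15.6%, Wilson interval 15.3 to 15.9, which covers counting error only) were held by all 4 lists, yet these took 65.0% of the span, with a median width of 8037.5 bp. Another 42860 (64.0%) were held by 1 list, with a median width of 567 bp and 16.8% of the span. Agreement followed width closely. All 593 union regions of 30 kb or wider were in every list, as were 97.8% of the 4128 regions of 10 kb or wider. A wide region has more bases in which to meet another list, and a union of overlapping domains is at least as wide as each of them, so part of this follows from the definition. When each list had to cover 50% of the region, only 3.03% of regions were in all 4. Without the column list at 11 cycles, 19.99% of the regions of the other 3 lists were in all of them.

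**Figure D3:**
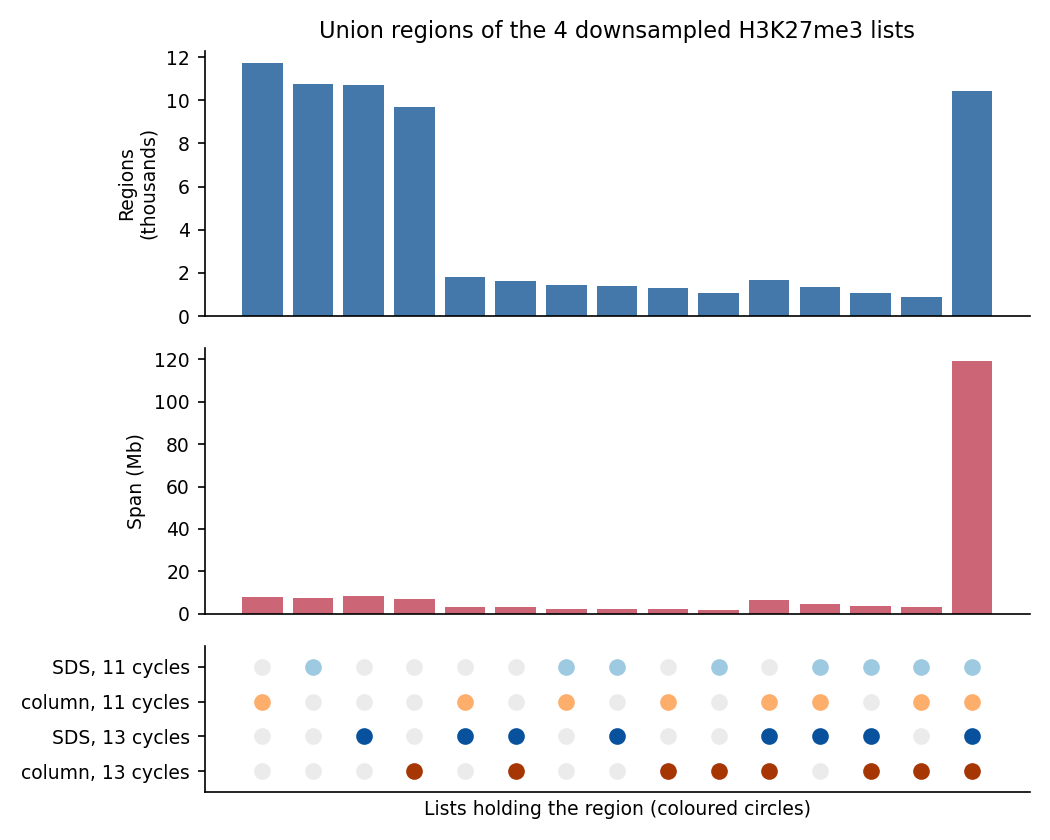
Number of union regions (top) and their summed span (middle, Mb) for each of the 15 combinations of the 4 downsampled H3K27me3 lists, shown by coloured circles (bottom). Regions of single lists number 9675 to 11711 each with 7.12 to 8.34 Mb, and those in all 4 lists number 10438 with 119 Mb.

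The 15-cycle list had no part in this division. It held 98.8% of regions found in all 4 lists, 89.6% of those in 3, 69.7% of those in 2 and 38.0% of those in 1. Among regions of a single list the share was 35.6% for SDS at 11 cycles, 34.3% for column at 11, 42.7% for SDS at 13 and 39.8% for column at 13. Domains of the 15-cycle list covered 7.34% of the span analysed, and wider regions meet it more often. Of the 11711 regions found in column at 11 cycles alone, 11.3% touched an active region held in at least 3 H3K27ac lists, against 0.599% to 1.26% of those found in any other single list.

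Agreement between 2 lists was not ordered by a shared extraction or cycle number. The Jaccard index, the shared bases over the bases of either list, was highest for column at 11 and SDS at 13 cycles, 0.427, a pair that shares neither. It was 0.416 for the 13-cycle pair, 0.408 for the column pair, 0.377 for the 11-cycle pair, 0.371 for the SDS pair and 0.367 for SDS at 11 and column at 13 cycles. The 3 lowest values all involved SDS at 11 cycles, the list with the least domain span. A difference in span lowers the highest index that 2 lists can reach. These 3 values were not ordered by that difference. SDS at 11 cycles covered 2.71% of the span analysed, column at 13 3.14% (index 0.367) and SDS at 13 3.64% (index 0.371). The part of span in the order of pairs was not tested. By number, 44.9% to 53.9% of the domains of one list met a domain of another. By bases the shares ran from 47.2% to 63.4%, where the other list covered 2.71% to 3.64% of the span analysed. With the 15-cycle list, 84.4% to 85.6% of the bases of each downsampled list were shared. No pair of lists was a copy of another: at most 24 peaks had identical ends.

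Few regions were held by both lists of one arm and by neither of the other. Both column lists and neither SDS list held 1281 regions (1.91% of the 66967), and both SDS lists and neither column list held 1409 (2.1%). For cycles, 1606 (2.4%) were in the 13-cycle lists alone and 1452 (2.17%) in the 11-cycle lists alone. Pairs that shared no factor had counts of 1817 (2.71%) for column at 11 with SDS at 13 cycles and 1093 (1.63%) for SDS at 11 with column at 13. The order of these counts depended on the processing: at equal list sizes 11-cycle lists had the highest count, 1493, and column lists the lowest, 1270. Without peaks at active regions the counts were 1273 for column, 1399 for SDS, 1606 for 13-cycle and 1421 for 11-cycle lists. Over the 6 pairs the median width was 1013.5 to 1259 bp, and the 15-cycle list held 65.6% to 73.3% of the regions.

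Even the widest of these arm regions were thinly covered. The widest in SDS lists only was on chromosome 15 from 70099463 to 70111115, with 2 peaks and a highest pileup of 2 at 11 cycles and 6 peaks and a pileup of 5 at 13. The widest in 13-cycle lists only was on chromosome 1 from 200997387 to 201009719, with 5 peaks in SDS and 2 in column and a highest pileup of 4 in both. In column lists only it was chromosome 16 from 21003895 to 21013029, with 6 peaks at 11 cycles, 2 at 13 and pileups of 4 and 3. In 11-cycle lists only it was chromosome 13 from 108626059 to 108634402, with 4 peaks and a pileup of 5 in SDS and 1 peak and a pileup of 2 in column. The 15-cycle list had peaks in the first 3 of these regions and none in the last. Among the 3 widest regions of each arm, 7.64 to 12.3 kb long, this was the only one without a 15-cycle peak, and no downsampled list exceeded a pileup of 5 in any of them.

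**Figure D4:**
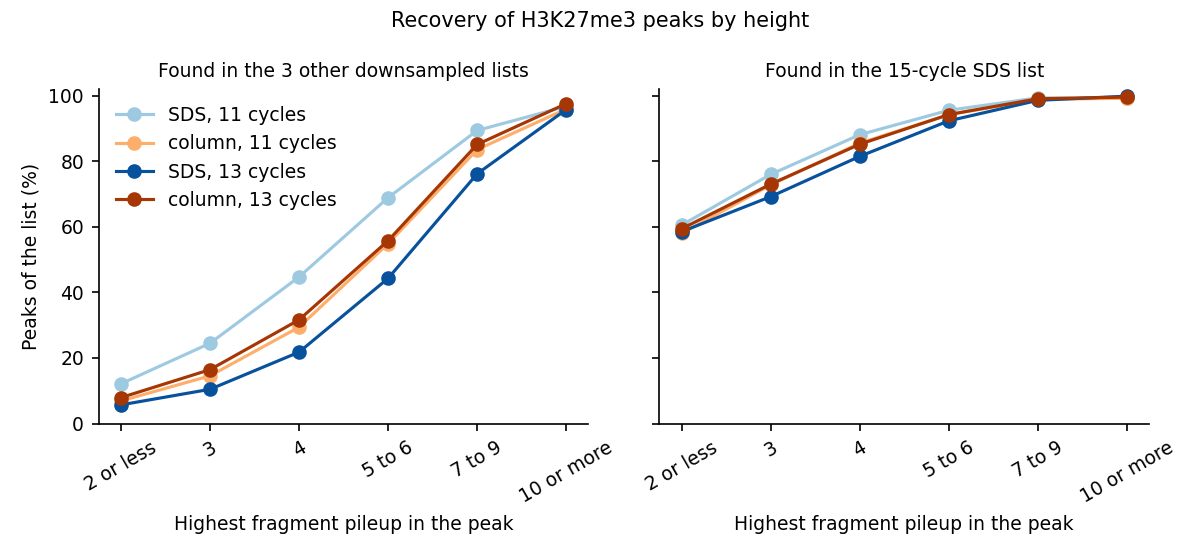
Percent of peaks (y axis) of each downsampled H3K27me3 list found in the 3 other downsampled lists (left) and in the 15-cycle SDS list (right), by the highest fragment pileup in the peak (x axis). From the lowest to the highest class the share in the 3 others goes from 5.71% to 12.1% up to 95.7% to 97.5%.

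Recovery of single peaks depended on their height. Peaks with a highest pileup of 2 or less were found in the 3 other lists in 12.1% of cases for SDS at 11 cycles, 6.92% for column at 11, 5.71% for SDS at 13 and 7.92% for column at 13. At a pileup of 5 to 6 these shares were 68.9%, 54.9%, 44.3% and 55.8%, and at 10 or more 96.7%, 95.9%, 95.7% and 97.5%. In every class below 10 the SDS list at 11 cycles had the highest share and the SDS list at 13 cycles the lowest, which is the reverse of their signal in peaks. Classes of equal pileup hold different parts of the lists, with 2 or less taking 31.4% of peaks in SDS at 11 cycles and 11.3% in SDS at 13. The lists searched differ too. SDS at 11 cycles, with the fewest peaks, was set against 3 larger lists, and each other list against a set that includes it. The 15-cycle list held 58.0% to 60.5% of the lowest class and 99.1% to 99.8% of the highest. Peaks of 10 or more were also wider, with medians of 1927 to 2243 bp.

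The widest domain lay in the same place in the 4 downsampled lists, but on chromosome 7 in the 15-cycle list. The regions named here and next were picked as the widest held by all 4 lists. Their presence in each list follows from that choice. The widest region held by all 4 lists was on chromosome 9 from 133768668 to 134002045, 233 kb long. Peaks covered 84.3% of it in SDS at 11 cycles, 85.5% in column at 11, 92.3% in SDS at 13 and 87.4% in column at 13, with highest pileups of 42, 70, 65 and 56. It contained the widest domain of each downsampled list, from 167 kb in SDS at 11 cycles to 233 kb in SDS at 13. In K562 the Philadelphia translocation between chromosomes 9 and 22 is known to be amplified. Signal was not corrected for copy number, and its part in these heights was not tested.

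The second widest region was on chromosome 22 from 22906322 to 23063809, 157 kb long and covered to 45.5%, 48.3%, 63.8% and 56.8% in the same order of lists. Like the widest, it lies on a chromosome of the amplified translocation, and the part of copy number was not tested. The next, on chromosome 7, ran from 151450737 to 151601994. It was covered to 38.5% in SDS at 11 cycles, 52.3% in column at 11, 67.1% in SDS at 13 and 55.4% in column at 13, with 65 to 69 peaks in each list. In the 15-cycle list 27 longer peaks covered 89.2% of it, within the widest domain of that list at 233 kb. The remaining 2 were both on chromosome 1, at positions 10755267 to 10903335 (148 kb, 35.2% to 59.1% covered) and 204896763 to 205043112 (146 kb, 38.6% to 57.2% covered). In each of these 4 regions SDS at 11 cycles covered the least and SDS at 13 cycles the most. Coordinates are those of hg19, and genes were not assigned since no annotation of that build was used here.

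The distribution of domains over chromosomes was nearly the same in the 4 lists. Chromosome 22 was the most densely covered in each, with 7.87% of its span in domains in SDS at 11 cycles, 9.83% in column at 11, 10.3% in SDS at 13 and 8.61% in column at 13. Chromosome 21 came next in SDS at 11 cycles, at 4.84%, and in the other lists too, at 5.62% to 6.49%. Chromosome X was covered least in all 4, at 0.664% to 0.813%, followed by chromosome 13 at 1.12% to 1.40%. Averaged over the lists, chromosome 22 held 2.87 times and chromosome X 0.239 times the domain span that its length would give. Across the 23 chromosomes, Spearman's rho of the covered share was 0.983 to 0.996 between downsampled lists and 0.953 to 0.978 with the 15-cycle list. These are descriptions, since all lists share the sequence composition and copy number of each chromosome. Signal was not corrected for copy number, and its part in the high coverage of chromosome 22 was not tested.

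**Figure D5:**
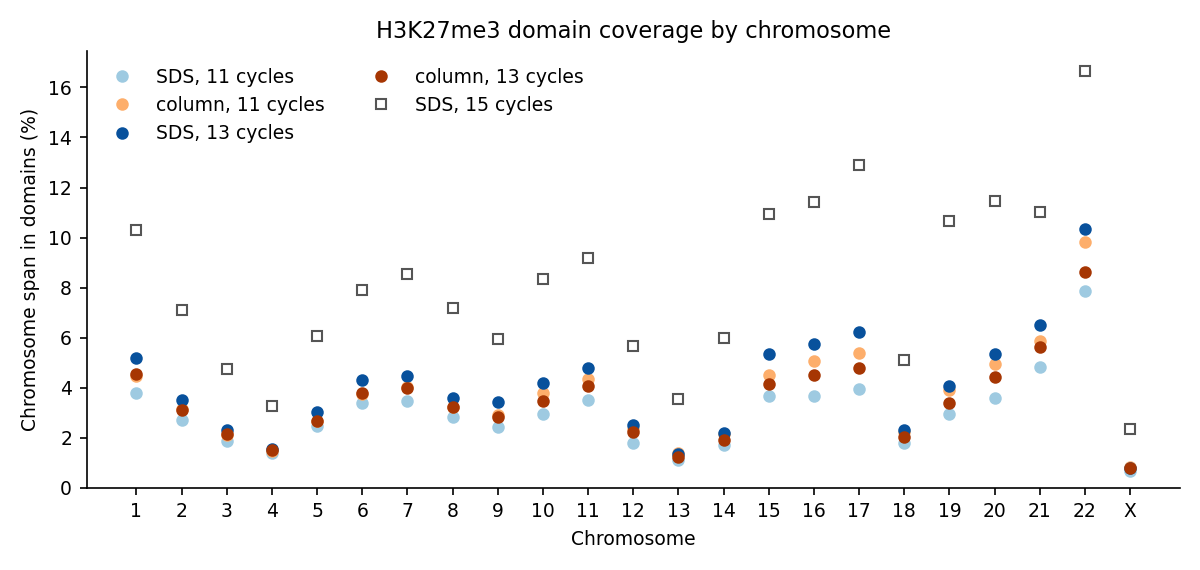
Percent of each chromosome's span (y axis) inside H3K27me3 domains for the 4 downsampled lists (filled circles) and the 15-cycle SDS list (open squares), by chromosome (x axis). Chromosome 22 is highest and chromosome X lowest in all 5 lists.

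Shares of domain span by chromosome differed little between arms. Between the highest and lowest of the 4 lists the share of a chromosome changed 1.09-fold in the median and at most 1.19-fold. Both column lists lay above both SDS lists on 3 of 23 chromosomes (13%), namely 12, 21 and X, and on none (0%) was it the reverse. Both 13-cycle lists lay above both 11-cycle lists on chromosomes 1 and 9 (8.7%), and below on chromosomes 13, 14, 18 and 22 (17.4%). When bases in peaks replaced domain span, column lay above SDS on 1 chromosome, SDS above column on 1, 13 above 11 cycles on 1 and 11 above 13 cycles on 4. Without the column list at 11 cycles, the log2 ratio of column to SDS was 0.041 on chromosome 12, 0.0054 on 21 and 0.20 on X, and that of 13 to 11 cycles was 0.034 on chromosome 1, 0.085 on 9, -0.14 on 13, -0.082 on 14, -0.058 on 18 and -0.031 on 22. Chromosome 1 held 11.8% and 11.6% of the span at 11 cycles, for SDS and column, and 12.1% and 12.3% at 13. Chromosome 13 held 1.34% and 1.39% at 11 cycles and 1.22% and 1.29% at 13. As mean log2 ratios of 13 to 11 cycles these differences were 0.057 and -0.12, and that of chromosome X was -0.093, where the 2 column lists differed by -0.0044. Among the 6 chromosomes whose extraction ratios had one sign at both cycle numbers, the mean log2 ratio was highest on chromosome X, 0.11, followed by 0.078 on chromosome 12 and 0.067 on chromosome 13. Some chromosomes instead followed the order of the lists by domain span. The share of chromosomes 16 and 17 rose in that order, as from 4.00% in SDS at 11 cycles through 4.20% and 4.53% to 4.70% in SDS at 13 for chromosome 17. That of chromosomes 3, 4 and 7 went down, as from 3.30% through 3.13% and 2.93% to 2.78% for chromosome 4.

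At finer scale the lists ranked windows alike. Over the 2967 windows of 1 Mb, Spearman's rho of bases in peaks was 0.969 to 0.974 between downsampled lists. This is again a description, since the lists share the composition and copy number of each window. The densest windows, chosen after their values were seen, lay at 155000001 to 156000000 of chromosome 7 and at 1000001 to 2000000 of chromosome 5. The former held 229 kb of peaks in SDS at 11 cycles, 284 kb in column at 11, 332 kb in SDS at 13 and 279 kb in column at 13. The latter held 228 kb, 316 kb, 301 kb and 253 kb, so that here the column list at 11 cycles was the highest. The window at 133000001 to 134000000 of chromosome 9, which holds most of the widest region, was also among the 6 densest. So were those at 22000001 to 23000000 and at 23000001 to 24000000 of chromosome 22. The part of copy number in these densities was not tested.

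Some long spans held no peak in any of the 4 lists, and they were chosen for that. Absence of a peak does not show absence of the mark. In 588 windows none of the 4 lists had a peak, against 736 to 909 windows without a peak in a single list. The longest span free of peaks in all 4 lists was on chromosome 1 from 121485435 to 142537596, 21.1 Mb that include the centromere, and the next on chromosome 9 from 47168434 to 65501031. Outside such flanks, chromosome X was free of peaks between 84200613 and 97780232, as was chromosome 13 between 60888643 and 73608238. The 15-cycle H3K27me3 list had 1 peak in the span of chromosome 1, 2 in that of chromosome 9, 1 in that of chromosome X and 0 in that of chromosome 13. The short arm of chromosome 9 was free of peaks from 19434416 to 26625199, where the 15-cycle H3K27me3 list had none and the 25 H3K27ac lists together 4. Such a low H3K27ac count was not particular to this span. It was also 4 on chromosome 16 from 58806120 to 65656722, and it was 5 in the span of chromosome X and 20 in that of chromosome 13. K562 is known to have lost part of the short arm of chromosome 9, and the part of missing DNA in the absence of peaks was not tested.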

How the data were processed

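CUT&Tag libraries of K562 cells were used as peak lists. The build is hg19 and the tools, per the submitters' processing notes (no role or order stated), were SEACR, MACS2, Bowtie2 2.2.9, Trim Galore 0.6.6, bcl2fastq, SAMtools 1.3.1, Picard 2.6.0 and bedtools 2.25.0. SEACR settings and read depths were not stated there. Each deposited SEACR list gives a total and a highest signal per peak. A score, a fold ratio, and −log10 p-values and q-values stand in the deposited MACS2 lists and were not used. Only positions of MACS2 peaks at 15 cycles gave an alternative reference.

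Domains were peaks of one list joined within 3 kb on chromosomes 1 to 22 and X, and the span analysed ran from the first to the last peak of any list. Overlap required 1 bp. The 6 measures (peak number, domain number, span, median width, N50 and coverage of 15-cycle domains of 10 kb or wider) were compared as log2 ratios with exact permutation tests, 2 lists against 2, and Benjamini-Hochberg adjustment. Lists of an arm differ in the other factor and no condition has a replicate. The labels do not say whether cultures were separate. P-values describe these lists alone, and the spread within an arm includes the effect of the other factor. The SD of 2 ratios reflects how far they differ between levels of the other factor, and not scatter between replicates. Named regions are the 5 widest in all 4 lists, the 3 widest of each arm (the first printed in full), the widest domain of each list, and the 3 chromosomes at either end of each contrast among those whose 2 ratios share a sign. The members and lists were chosen with earlier results of these data known. Alternatives covered the joining distance, overlap, equal list sizes, a common signal threshold, all sequences, the reference and peaks at active regions, the last and, except for peak number, the common threshold being chosen after seeing the data. Gene lists were not run, lacking an annotation on hg19. Coordinates count from 1. Python 3.11.15 was used with matplotlib 3.10.9, scipy 1.17.1, pandas 2.3.3 and numpy 2.4.6. Interval code was checked on simulated lists made from 65283 peaks, and against bedtools 2.31.1, which gave the same 32033 overlapping peaks for 1 pair of lists.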

Additional observations from a re-analysis of the deposited data

Results flagged for a closer look

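Column and SDS lists differed in opposite directions at 11 and 13 cycles in all 6 measures, with 1 list per condition, and this difference was not tested. In 2 measures it depended on the processing: median domain width was lower in column at both 11 and 13 cycles when joined within 10 kb (-0.34 and -0.22), as was domain number without peaks at H3K27ac regions (-0.0070 and -0.067). The log2 ratio of column to SDS at 13 cycles minus that at 11 cycles was -0.34 for peak number, -0.12 for domain number, -0.48 for domain span, -0.13 for median domain width, -0.55 for N50 and -0.59 for coverage of the wide 15-cycle domains. Read by cycles, 13 over 11 was above 0 in SDS lists and below 0 in column lists for peak number, domain span, N50 and coverage, with the same 4 differences.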

How the results depend on the processing

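Values are mean log2 ratios unless stated, and the cause of each change was not tested. Of 74 values under settings other than a single level of the other factor, 64 kept their direction and 10 reversed. Of 24 values at single levels, 14 kept it and 10 reversed. Each reported value is the mean of its single-level ratios, so a reversal is built in wherever those ratios differ in sign. Median domain width by cycles kept its direction in every setting run. Column over SDS reversed at 13 cycles alone for peak number (-0.17), domain span (-0.21), N50 (-0.19) and coverage of wide 15-cycle domains (-0.22), and at 11 cycles alone for domain number (0.046) and median width (0.043). By cycles, the column lists alone reversed peak number (-0.089), domain span (-0.059), N50 (-0.038) and coverage (-0.063). Joining within 10 kb turned column over SDS to 0.0093 for domain number and -0.0033 for span. Without joining it was 0.0043 for domain number and 0.0068 for median width. The common signal threshold turned it to -0.0085 for peak number and 0.010 for median width, and leaving out peaks at H3K27ac regions to -0.0092 for peak number. Cycle numbers separated domain span at equal list sizes (0.22 within SDS, 0.0096 within column) and N50 without joining (0.23 and 0.013). Domain number by cycles became 0.0083 when joined within 1 kb, 0.081 without joining and 0.19 under the common threshold. The share of domains in the 15-cycle list, 13 minus 11 cycles, became -2.73 percentage points under that threshold.

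The share of union regions in all 4 lists was 13.0% joined within 1 kb, 19.7% within 10 kb, 11.999% without joining, 3.03% with 50% of the region covered, and 15.9% both at equal list sizes and without peaks at H3K27ac regions. Leaving out 1 list gave 19.2% to 20.8% in the remaining 3. Regions of column, SDS, 13-cycle and 11-cycle lists only numbered 2473, 2528, 3147 and 2463 when joined within 1 kb, 526, 601, 627 and 694 within 10 kb, and 3954, 3939, 5234 and 3601 without joining. Under the common threshold 898 were in 11-cycle lists only and 1975 in 13-cycle lists only. Replicate numbers pair no lists here, and the ratios at each level of the other factor are the paired values. Low pileups limit what absence from a list shows.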
